A study of Oryza sativa Indica Group with 45 samples.

Results

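Mature leaves of the restorer line of an indica rice hybrid were set against mature leaves of its maintainer line, to ask where the inbred parents differ in transcript level at this stage. The comparison takes 6 of the 45 arrays of the series, all those whose labels name a mature leaf of an inbred parent: 3 of the R line PR319, the male parent, and 3 of the B line PMS80, the female parent. Both lines were sampled as leaves of plants 40 to 60 days old, and neither carries a transgene or a treatment. The 3 mature leaf arrays of their hybrid MRP5401 are shown only to place its level beside those of the parents, and the R line and B line arrays of young leaf and young root (14 days), flag leaf (90 days) and mature root (40 to 60 days) only to show where mature leaf differs.

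The labels call the arrays of a group biological replicates without saying whether each came from its own plant, so the tests measure the spread between these arrays, and their number limits the precision of every value. The labels give neither a time of day nor a leaf position. In three-line hybrid rice breeding, the B line keeps a male-sterile line going and the R line brings the nuclear genes that restore pollen fertility in the hybrid. A mature leaf is mainly a source organ: it fixes carbon, holds starch by day, and exports sucrose. Differences between inbred lines in such a tissue can involve metabolism, wall building, transport and defence genes, which are taken below in that order after the genes that lie furthest apart.

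Levels are log2 intensities, differences are R line minus B line on the log2 scale with the SE from limma, and a gene is called where its adjusted p was under 0.05. A group mean under 5 lies near background, so a difference with 1 such mean is given as a bound ("at least") with that mean set to 5, and a difference with both means under 5 has no order. Levels of different probe sets are not compared with each other.

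The leaf label was checked against marker genes. Of 8 leaf photosynthesis markers on the array, 7 were over 5 in both lines, and their median over the list was 13.59 in R line and 13.29 in B line mature leaves, against 3.09 and 3.34 in mature roots of the same lines. The exception was GDCSH, a glycine cleavage protein gene, under 5 in both. The Rubisco activase gene rca averaged 14.97 ± 0.04 in the R line and 15.11 ± 0.04 in the B line, and none of the 7 was called between the lines. Their SE is shared with the other groups: RBCS averaged 10.82 ± 0.05 and 10.48 ± 0.04, but its difference of 0.33 had an SE of 0.52. Of 12 root markers on the array, 3 were over 5 in the R line and 4 in the B line. NAAT1, TOM1 and NIP2-1 were high in leaves of both lines, while the silicon exporter gene Lsi2 stood at 2.45 in R line and 2.46 in B line leaves. The mean level of the root list ran from 5.36 to 5.49 over R line arrays and from 5.64 to 5.86 over B line arrays, and its members IRT1 and OsAMT1;2 were called lower in the R line. Of 4 senescence markers, all over 5, 1 was called (RCCR1, lower in the R line). Of 5 vascular markers, 3 were over 5 in the R line and 2 in the B line, and 1 was called (CESA7, with no order). The part of these cell types in the results was not tested, and in bulk leaf fewer cells of a type and less RNA per cell cannot be told apart.

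The arrays of both lines correlated closely within their group (0.987 to 0.990 in the R line and 0.983 to 0.986 in the B line). Their hybridization spike-ins stood apart: the mean log2 spike-in signal was 11.35 ± 0.11 in the R line (11.25 to 11.47) and 12.34 ± 0.16 in the B line (12.20 to 12.51). The 3' minus 5' signal of control genes, a measure of RNA quality, ran from 2.29 to 2.88 in the R line and from 2.09 to 2.52 in the B line. With the spike-ins as a covariate, 26 of the 77 calls of named genes did not pass: WRKY76, PSK4, OsTrx20, FNR, OsAMT1;2, PHR2, YSL16, CSLF6, LAC7, MAN1, EXPA10, HSF10, HSFA2E, ARD1, GSTZ3, APX5, LTI6A, RAB16B, ARF1, ARF12, ARF23, IAA5, CM-LOX1, TUB8, ENR and SK2. Their adjusted p then ran from 0.0718 to 0.391, and no direction turned.

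Across all probe sets tested, 3662 of 24130 (15.2%) were called between the parents in mature leaf, 2276 higher in the R line (9.43%) and 1386 lower (5.74%). Among the 2302 calls with both means at 5 or more, the median absolute difference was 0.88. With means under 5 set to 5, 851 calls were higher in the R line by 1 or more and 605 lower, and 106 were higher by 3 or more and 92 lower. Both means were under 5 for 343 calls (9.37%). The R line share of calls was 62.2%, against 52.6% after quantile normalization. The arrays of the lines did not overlap for 3443 calls, while 36.9% of all tested probe sets showed no overlap. Of 1996 genes with a descriptive name, 259 (13%) were called, 163 higher in the R line (8.17%) and 96 lower (4.81%), and the median difference over these 1996 was 0.07 against 0.03 over all probe sets.

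**Figure D1:**
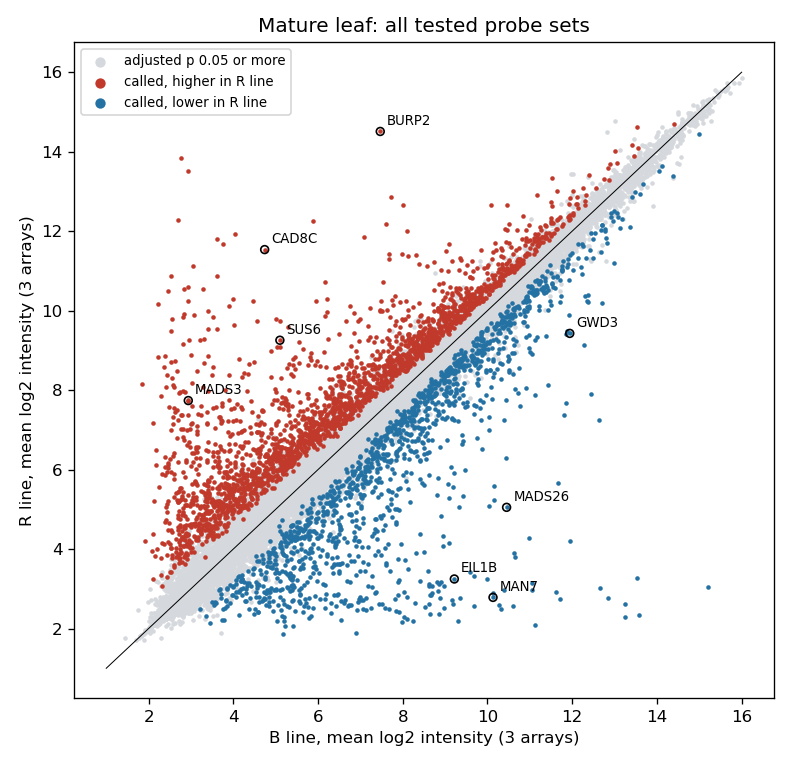
Mean log2 intensity of every tested probe set in R line mature leaf (vertical axis) and B line mature leaf (horizontal axis), 3 arrays each. Red points were called higher in the R line (2276), blue points lower (1386) and grey points not called, and circles mark 8 of the named genes. The points furthest from the diagonal lie along the lower and left edges, where 1 line is near background.

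The named gene furthest above the B line was BURP2, of the plant-specific BURP domain family. BURP2 measured 14.60, 14.50 and 14.43 on the R line arrays and 6.88, 7.94 and 7.59 on the B line arrays. The difference was 7.04 ± 0.81 (132-fold, limma adjusted p = 2.35e-08), and a second probe set of BURP2, prone to cross-hybridization, differed by 6.28 as fitted. CAD8C, of the cinnamyl alcohol dehydrogenase family whose best known members make lignin precursors, measured 11.62, 11.49 and 11.49 in the R line against 3.83, 5.33 and 5.05 in the B line. That is a difference of at least 6.54 (limma adjusted p = 3.51e-19), but another probe set for CAD8C was near background in both lines, at 2.86 in the R line and 2.95 in the B line.

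A pair of sucrose synthase genes was far higher in the R line. Sucrose synthase cleaves sucrose reversibly to UDP-glucose and fructose and feeds both wall and starch synthesis. SUS6 measured 9.48, 8.81 and 9.48 in the R line and 4.04, 5.08 and 6.17 in the B line, a difference of 4.16 ± 0.55 (17.8-fold, limma adjusted p = 4.14e-07). SUS5 measured 9.08, 8.62 and 9.56 in the R line against 3.996, 5.79 and 5.53 in the B line, a difference of 3.98 ± 0.41 (15.8-fold, limma adjusted p = 2.13e-09). No array of 1 line overlapped the other line for either gene, which the choice of the genes furthest apart required. In both the hybrid lay between its parents, with means of 7.23 and 7.29.

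The ATP-citrate lyase subunit gene ACLA-2, whose enzyme makes cytosolic acetyl-CoA, averaged 9.10 ± 0.19 in the R line and 5.03 ± 0.44 in the B line (SD, n = 3 each), a difference of 4.07 ± 0.45. NRAMP4, a metal transporter gene, averaged 8.94 ± 0.65 in the R line and 5.84 ± 0.73 in the B line, a difference of 3.10 ± 0.35. Of 4 other probe sets of NRAMP4, 2 were also higher in the R line, and 2 were under 5 in both lines, at 4.16 and 3.51 in the R line and 2.32 and 3.26 in the B line. STLP5 was higher by at least 2.99 and OSR8 by 2.83 ± 0.28. The acylamino-acid-releasing enzyme gene AARE2 was higher by 2.68 ± 0.61, with 7.43, 7.03 and 8.99 in the R line against 5.25, 5.15 and 5.02 in the B line.

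MADS3, a C-class floral organ identity gene known for specifying stamens, was read in R line leaves and was at background in B line leaves. It measured 7.74, 8.02 and 7.45 in the R line and 2.93, 2.95 and 2.94 in the B line, a difference of at least 2.74 (limma adjusted p = 4.65e-15), and the hybrid averaged 6.38. Of 15 reproductive or shoot meristem markers on the array, 2 were over 5 in the R line (MADS3 and MADS16) and 1 in the B line (MADS16), and MADS3 was the only 1 called. MADS58, the other C-class gene, stood at 2.70 in both lines, and MADS1, MADS4, MADS6, MADS7, MADS8 and MADS13 were all under 3.

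The other genes among the 12 furthest up were the aquaporin gene PIP2-4 (2.58 ± 0.45) and the beta-expansin gene EXPB3 (2.35 ± 0.53). Both calls were lost in a fit of only the arrays compared (adjusted p = 0.0544 and 0.0559). PIP2-4 measured 8.35, 8.07 and 6.97 in the R line against 4.96, 4.46 and 6.23 in the B line.

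**Figure D2:**
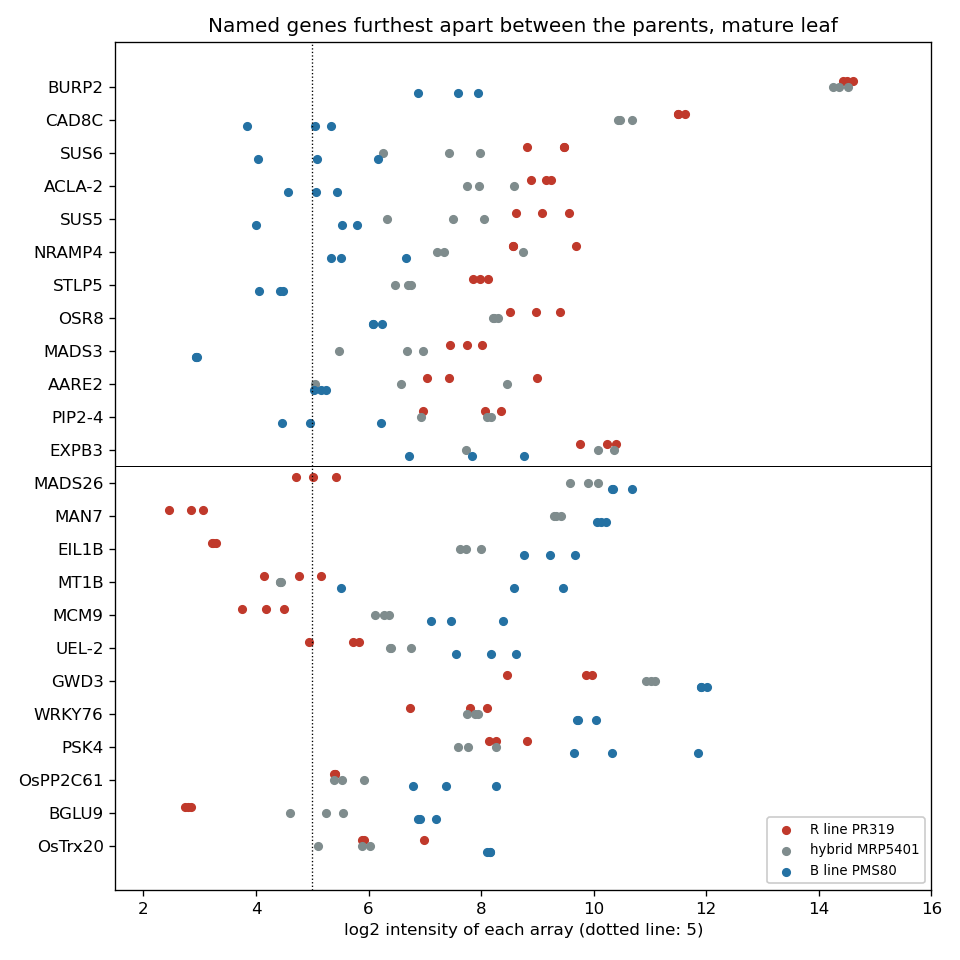
Log2 intensity on each mature leaf array for the 12 named genes furthest higher (above the line) and the 12 furthest lower (below it) in the R line, with R line arrays in red, hybrid arrays in grey and B line arrays in blue. No R line point overlaps the B line points, which the choice of these genes required, and the hybrid points lie mostly between them. The dotted line at 5 marks the level below which a mean is near background.

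In the other direction MADS26, a MADS-box transcription factor gene, came first when means under 5 were set to 5. MADS26 measured 5.02, 5.42 and 4.71 in the R line against 10.33, 10.34 and 10.69 in the B line, a difference of -5.40 ± 0.26 (42.3-fold higher in the B line, limma adjusted p = 1.52e-18). The hybrid averaged 9.85, near the B line. MAN7, for an endo-beta-mannanase that cuts wall mannans, measured 3.06, 2.84 and 2.45 in the R line against 10.21, 10.05 and 10.13 in the B line. MAN7 was thus lower in the R line by at least 5.13 (limma adjusted p = 1.14e-16), and the hybrid averaged 9.35.

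EIL1B, of the EIN3-like family that carries the ethylene signal in the nucleus, measured 3.22, 3.28 and 3.24 in the R line against 9.67, 8.76 and 9.23 in the B line, lower by at least 4.22. MCM9, of the minichromosome maintenance family, was lower by at least 2.66, and a second probe set of MCM9 was also lower (2.51 in the R line and 5.88 in the B line). UEL-2 differed by -2.61 ± 0.34. The beta-glucosidase gene BGLU9 was lower by at least 2.00, with 2.75, 2.79 and 2.84 in the R line against 6.87, 6.92 and 7.20 in the B line.

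GWD3, for the phosphoglucan water dikinase that opens starch granules to breakdown, measured 9.96, 9.86 and 8.45 in the R line against 12.02, 11.91 and 11.90 in the B line. The difference was -2.52 ± 0.43 (5.72-fold higher in the B line, limma adjusted p = 3.78e-05). WRKY76, a transcription factor gene of the defence response, averaged 7.55 ± 0.72 in the R line and 9.82 ± 0.18 in the B line, a difference of -2.27 ± 0.57, and OsTrx20, a thioredoxin gene, differed by -1.88 ± 0.33. Both calls were lost when the spike-ins entered as a covariate (adjusted p = 0.0718 for WRKY76 and 0.0745 for OsTrx20).

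Several genes low in the R line were uneven among the B line arrays. The metallothionein gene MT1B measured 5.15, 4.13 and 4.76 in the R line against 9.46, 5.51 and 8.58 in the B line, lower by at least 2.85, and the call was lost in a fit of only the arrays compared (adjusted p = 0.138). PSK4, for a precursor of the growth peptide phytosulfokine, measured 8.82, 8.27 and 8.14 in the R line against 11.86, 9.65 and 10.32 in the B line, a difference of -2.20 ± 0.70. B line replicate 1 was the highest array for PSK4, and without it the difference was -1.58 (adjusted p = 0.204). The same array was highest for the lipoxygenase gene CM-LOX1 (8.92, against 5.06 and 6.57 on the other B line arrays and 3.95 to 4.44 in the R line), the heat shock factor gene HSF10 and the metal-nicotianamine transporter gene YSL13. Leaving it out, the differences of CM-LOX1, HSF10 and YSL13 were -1.60, -1.24 and -1.04 (adjusted p = 0.128, 0.226 and 0.278). SGR, a chlorophyll breakdown gene that was not called, also read 9.41 on that array against 6.90 and 7.33 on the other B line arrays and 6.52 to 7.02 in the R line. The PSK4 call was lost as well without R line replicate 2 or 3 (-2.13 and -2.07).

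In the counts of the hybrid that follow, hybrid and parent means under 5 were set to 5. A hybrid mean therefore could not lie beyond a parent under 5, a limit for the 1017 calls with 1 such parent. Raising that parent to 5 could also place it nearer the hybrid than it was measured. Which parent was nearer was read from log2 means alone and was not tested. Beside its parents, the hybrid mean lay between them for 2785 of the 3319 calls with an order, beyond the R line for 394 and beyond the B line for 140. For the 460 of these with a difference of 2 or more it lay between for 439 and was nearer the R line for 244 and the B line for 216. With means under 5 set to 5, it lay between for all of the 12 genes furthest up, nearer the R line in each, and for 10 of the 12 furthest down, where it was nearer the R line for 8 and the B line for 4. On that scale MADS26, MAN7, EIL1B and GWD3 were the 4 whose hybrid mean was nearer the B line, with GWD3 at 11.01 in the hybrid. MCM9 and BGLU9 counted as nearer the R line only because their R line means were raised to 5. As measured, MCM9 averaged 4.14 in the R line, 6.25 in the hybrid and 7.66 in the B line, nearer the B line. BGLU9, at 2.79, 5.13 and 6.996, was also nearer the B line. For both, an R line mean near background cannot settle which parent the hybrid was nearer. Among the 12 furthest up, the hybrid arrays of SUS6, AARE2 and EXPB3 spread widely (SD 0.88, 1.71 and 1.44).

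Gene groups come next, each counted as members called of members tested and set beside the 8.17% of named genes called higher and the 4.81% called lower. The photosynthesis lists were short, and whether their counts differ from the 13% of named genes called was not tested. Of 11 genes of photosystems, light harvesting and electron carriers, none was called higher and 1 lower, with a list median of 0.07. That 1 was FNR at -0.60 ± 0.21 (adjusted p = 0.0477), a call lost under 8 of the 16 alternatives tried, and a second probe set of FNR differed by 0.10. None of 11 Calvin cycle or photorespiration genes was called, nor were any of 9 chlorophyll synthesis genes, whose median was 0.32. PORA, for protochlorophyllide reductase, differed by 1.15 ± 0.52 (adjusted p = 0.151). Nitrogen assimilation was similar, with 1 of 11 called: plastid glutamine synthetase GLN2 averaged 14.58 ± 0.14 in the R line and 14.43 ± 0.10 in the B line. The called member, the ammonium transporter gene OsAMT1;2, had both means under 5 and lost its call without B line replicate 3 (-0.73, adjusted p = 0.183), while without B line replicate 1 it was -2.05.

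Of 8 clock genes, PRR1 was called, a pseudo-response regulator of the evening clock. PRR1 measured 9.79, 9.89 and 9.95 in the R line against 10.77, 10.50 and 10.45 in the B line, a difference of -0.69 ± 0.17. The 7 others differed by less than 0.3, among them GI (0.13 ± 0.16), PRR73 (0.29 ± 0.13) and PRR95 (0.27 ± 0.21). None of 14 flowering time and phytochrome genes was called. The phytochrome B gene PhyB came closest at 0.41 ± 0.16 (adjusted p = 0.0743).

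In starch and sucrose metabolism and transport, 3 of 39 were called, all higher: SUS5, SUS6 and the invertase gene CIN7. CIN7, for an enzyme that splits sucrose irreversibly in the wall, measured 7.32, 7.31 and 7.59 in the R line against 6.51, 6.05 and 6.48 in the B line, a difference of 1.06 ± 0.22. GWD3 was not on this list. Over the list the median was 0.15.

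Wall genes were called in both directions. Of 46 genes of cellulose and lignin synthesis, 5 were called higher and 1 lower (2 to 8 higher and at most 1 lower over the 16 alternatives). Beside CAD8C, the cellulose synthase-like gene CSLA5 was higher by 1.29 ± 0.26 and CSLF6, of mixed-linkage glucan synthesis, by 1.34 ± 0.39. The CSLF6 call was lost without R line replicate 3 (0.92, adjusted p = 0.17), without B line replicate 3 (0.98, adjusted p = 0.135), with the spike-in covariate and with only the arrays compared. The laccase gene LAC7 rested on 1 array, at 4.56, 4.28 and 9.57 in the R line against 3.31, 4.13 and 3.45 in the B line, and without R line replicate 3 its difference was 0.79 (adjusted p = 0.393). CESA7, a secondary wall cellulose synthase gene, was called with both means under 5. Its call was lost without that array, and without B line replicate 1 or 3. The lower member was 4CL5, by at least 0.20.

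Of 34 expansins and other wall-loosening genes, 5 were called higher and 2 lower, 3 of the 5 with both means under 5 (EXPA2, EXPB2 and EXPB11). EXPB3 and the mannanase gene MAN1 were higher, MAN1 by 1.16 ± 0.38, a call lost under 8 of 16 alternatives, among them leaving out any 1 R line array (0.99 to 1.27). MAN7 and the expansin gene EXPA10 (-0.79 ± 0.21) were lower, EXPA10 with no call once the spike-ins were a covariate (-0.55, adjusted p = 0.201). The largest group, histones, cell cycle and DNA replication, had 13 of 93 called higher and 3 lower (6 to 18 higher and 3 to 4 lower over the alternatives), with a median of 0.09 that was 0 with means under 5 set to 5. CYCD5-2, a D-type cyclin gene, was higher by at least 0.82, the kinesin gene KIN14N by at least 0.76, the cyclin gene CYCL1-1 by 0.76 ± 0.15 and the beta-tubulin gene TUB1 by 1.62 ± 0.43. TUB8, another tubulin gene, averaged 7.75 ± 0.97 in the R line and 5.94 ± 1.70 in the B line, and without B line replicate 3 its difference was 0.84 (adjusted p = 0.393). MCM9, the replication protein gene RPA2B (-0.88 ± 0.17) and the kinesin gene KIN7C (-1.09 ± 0.27) were lower. TUB1 lost its call without B line replicate 1 (1.36, adjusted p = 0.0605).

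**Figure D3:**
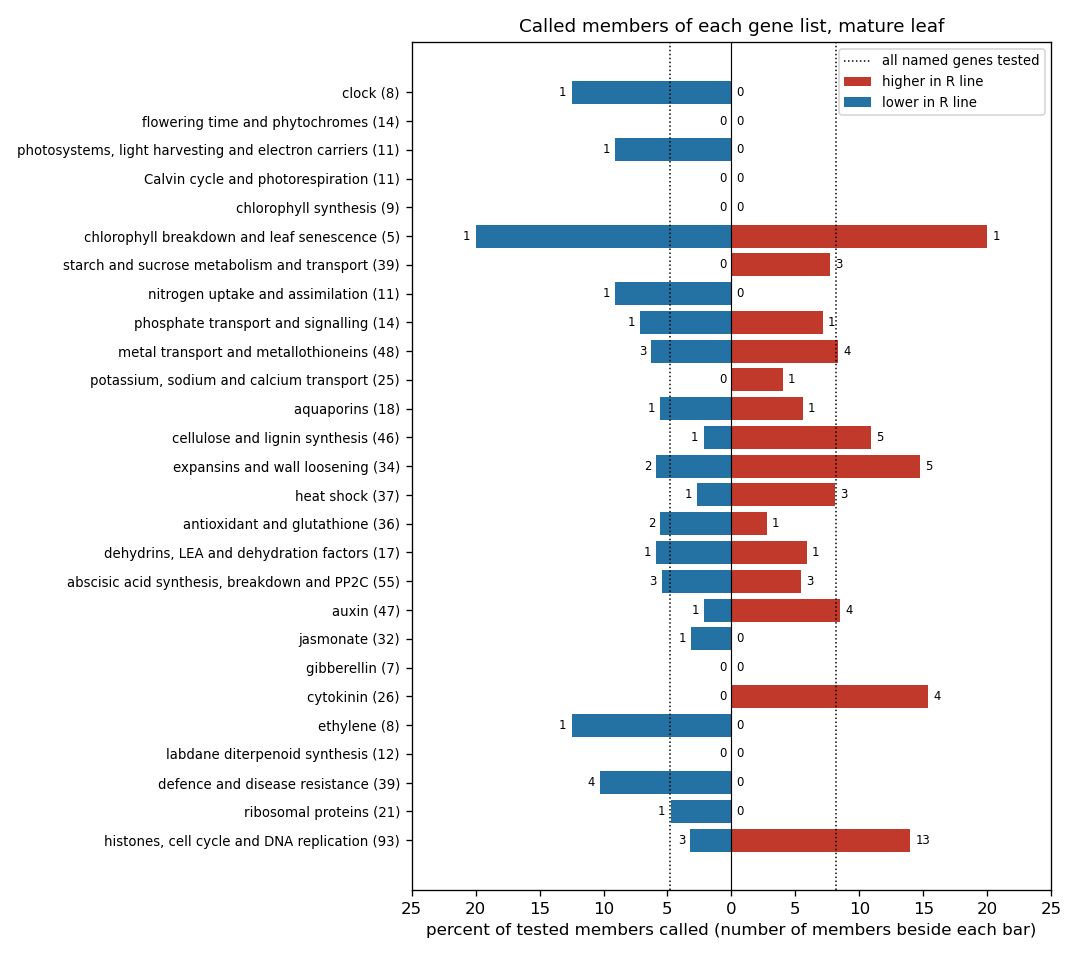
Percent of the tested members of each gene list called higher in the R line (red, right) or lower (blue, left), with the number of members beside each bar and the number tested after each list's name. Dotted lines mark the shares over all named genes tested, 8.17% higher and 4.81% lower. The lists of flowering time, the Calvin cycle, chlorophyll synthesis, gibberellin and labdane diterpenoids have no call.

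Among 18 aquaporins, which pass water through membranes, PIP2-4 was higher and PIP2-2 lower. PIP2-2 measured 4.20, 3.77 and 4.56 in the R line against 6.70, 6.91 and 6.42 in the B line, lower by at least 1.68. A cross-hybridizing probe set of PIP2-2 read 14.39 in the R line and 14.14 in the B line, with no call (adjusted p = 0.447). Highly read aquaporins such as PIP1-2 (14.10 ± 0.06 in the R line and 14.02 ± 0.13 in the B line) were not called. Of 48 genes of metal transport and metallothioneins, 4 were called higher (NRAMP4, YSL16, MTP1 and MT4C) and 3 lower (MT1B, IRT1 and YSL13). YSL16, a metal-nicotianamine transporter gene of the phloem, measured 13.11, 13.05 and 13.09 in the R line against 12.20, 12.18 and 12.38 in the B line, a difference of 0.83 ± 0.20, not called once the spike-ins were a covariate (adjusted p = 0.0815). The vacuolar metal transporter gene MTP1 was higher by 0.46 ± 0.15. IRT1, the iron uptake transporter gene of roots, averaged 3.56 in R line and 5.44 in B line leaves, lower in the R line by at least 0.44. The IRT1 call was lost with each value under 5 set to 5 (limma adjusted p = 0.139). Among 14 phosphate genes, the regulator gene PHR2 was higher by 0.55 ± 0.13 and the transporter gene PHT1-1 lower by 1.46 ± 0.41. PHR2 was not called once the spike-ins were a covariate (0.46, adjusted p = 0.0758), and a second probe set of PHR2 differed by -0.30. A second probe set of PHT1-1 differed by -0.71 and was not called (adjusted p = 0.137), and PHT1-1 lost its call without B line replicate 1 (-1.26, adjusted p = 0.0736). Of 25 genes of potassium, sodium and calcium transport, 1 was called, the potassium channel gene KCO1 at 0.68 ± 0.19.

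Among hormone genes, all 4 called members of 26 cytokinin genes were higher in the R line: CKX3, for cytokinin oxidase that degrades the hormone, by at least 1.35, the response regulator genes RR22 and RR23 by 0.92 ± 0.19 and 0.73 ± 0.18, and the phosphotransfer gene AHP2 by 0.45 ± 0.12. RR23 lost its call without B line replicate 2 (0.55, adjusted p = 0.0603) and AHP2 without R line replicate 1 (0.38, adjusted p = 0.0567). Of 47 auxin genes 4 were higher and 1 lower: ARF23 was higher by 0.64 ± 0.16 and IAA5, an auxin signalling repressor gene, by 0.36 ± 0.10, and GH3.2, which conjugates auxin to amino acids, was lower by at least 0.07. ARF1 and ARF12, the other 2 higher, each lost their calls under 8 of 16 alternatives, and ARF1 was 0.54 without R line replicate 2 (adjusted p = 0.307). The IAA5 call was lost without replicate 1 of either line (0.32 without that of the R line and 0.31 without that of the B line). With the spike-in covariate neither ARF23 (0.53, adjusted p = 0.083) nor IAA5 (0.31, adjusted p = 0.126) passed, and a second probe set of ARF23 differed by -0.22. None of 7 gibberellin genes was called.

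The list of abscisic acid genes and protein phosphatases of type 2C, some of which restrain abscisic acid signalling, had 3 of 55 called higher and 3 lower, all 6 phosphatases. OsPP2C39 measured 8.08, 8.29 and 8.50 in the R line against 6.03, 6.37 and 6.38 in the B line, a difference of 2.03 ± 0.34. OsPP2C67 was higher by 0.85 ± 0.16, and OsPP2C75 had both means under 5. OsPP2C61, OsPP2C02 and OsPP2C06 were lower, by 2.08 ± 0.52, 1.76 ± 0.38 and 1.42 ± 0.24 in size. OsPP2C06, an abundant member of the set, measured 10.07, 10.10 and 9.89 in the R line against 11.39, 11.42 and 11.49 in the B line.

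Of 39 defence genes, 4 were called, all lower in the R line, beside 4.81% of named genes called lower. Beside WRKY76, NH4, of the NPR1 family that relays salicylic acid, measured 6.06, 6.38 and 6.77 in the R line against 7.95, 7.40 and 7.49 in the B line, a difference of -1.21 ± 0.31. RACK1B, a scaffold protein gene, differed by -0.84 ± 0.23 and WRKY51 by -0.91 ± 0.32. WRKY51 lost its call without any 1 of the 6 arrays (-0.82 to -1.03) and RACK1B without R line replicate 1 (-0.72, adjusted p = 0.0622). The list median was -0.06. In jasmonate synthesis and signalling 1 of 32 was called, CM-LOX1, and in labdane diterpenoid synthesis, the phytoalexin pathway, none of 12 was, with a median of -0.60 that was 0 with means under 5 set to 5. CPS2 of that pathway averaged 5.996 ± 0.76 in the R line and 7.38 ± 0.81 in the B line.

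Stress groups were mixed. In heat shock 3 of 37 were higher and 1 lower, with the plastid chaperone gene CLPD2 at 0.84 ± 0.21 and the factor gene HSFA2E at 0.59 ± 0.15. ARD1, which entered this list through a synonym and not through that symbol, was higher by at least 0.14. A second probe set of ARD1 differed by -0.15, and with each value under 5 set to 5 ARD1 differed by 0.21 (adjusted p = 0.857). Of 36 antioxidant and glutathione genes 1 was higher (the glutaredoxin gene GRXS11, 0.35 ± 0.12) and 2 lower (GSTZ3, -0.88 ± 0.23, and APX5, with both means under 5). A second probe set of GSTZ3 differed by -0.16 and was not called. The GSTZ3 call was lost without B line replicate 3 (-0.53, adjusted p = 0.134), that of APX5 without B line replicate 2, and that of GRXS11 without any 1 of 4 arrays (0.26 to 0.38). Of 17 dehydrin, LEA and dehydration genes, LTI6A was higher by 1.04 ± 0.24 and the dehydrin gene RAB16B lower by at least 0.17. In these stress groups, HSF10, HSFA2E, ARD1, GSTZ3, APX5, LTI6A and RAB16B did not pass with the spike-in covariate (adjusted p from 0.0882 for ARD1 to 0.194 for GSTZ3).

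Among 5 genes of chlorophyll breakdown and leaf senescence, OSL2, a senescence-induced transaminase gene, was higher and RCCR1, for red chlorophyll catabolite reductase, lower. OSL2 measured 9.94, 9.92 and 9.87 in the R line against 9.08, 8.96 and 8.66 in the B line, a difference of 1.01 ± 0.18. RCCR1 differed by -0.84 ± 0.22 and lost its call without B line replicate 1 (-0.54, adjusted p = 0.125) or R line replicate 2 (-0.68, adjusted p = 0.0662). In ethylene signalling EIL1B was the only 1 of 8 called. Of 21 ribosomal protein genes, 1 was lower (RPS27AA, -0.56 ± 0.17), a call lost without R line replicate 1 or B line replicate 1 or 2 (-0.57 to -0.50).

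Rf2, the only tested gene of the list of fertility restorers, measured 8.71 ± 0.18 in the R line and 8.64 ± 0.08 in the B line. Its difference was 0.08 ± 0.18 (adjusted p = 0.938).

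The parental difference was then set against that at other stages. Between the R line and the B line 3065 probe sets were called in flag leaf (12.7%), 11180 in young leaf (46.3%), 14222 in mature root (58.9%) and 6892 in young root (28.6%). Higher and lower in the R line were 6.54% and 6.16% of tested probe sets in flag leaf, 17.3% and 29% in young leaf, 27.7% and 31.3% in mature root and 16.8% and 11.7% in young root. Array controls of the lines also differed at other stages. The 3' minus 5' signal averaged 1.59 in R line and 3.71 in B line mature root. It was 4.34 and 3.73 in young leaf, 3.47 and 2.87 in young root and 3.75 and 4.13 in flag leaf. The spike-in signal averaged 12.80 and 11.74 in young leaf and 10.75 and 11.27 in mature root. It was 10.88 and 10.49 in young root and 11.31 and 11.34 in flag leaf. How far these enter the calls at those stages was not tested. Of the mature leaf calls, 1398 were called in flag leaf in the same direction and 36 in the opposite one, which is 38.2% of the mature leaf calls and 45.6% of the flag leaf calls. In young leaf the counts were 1504 and 606, in mature root 1448 and 763, and in young root 1111 and 306. Called in mature leaf and at no other stage were 400. In the same direction at all 5 stages, 188 (0.779%) were higher and 254 (1.05%) lower in the R line.

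The test of the difference itself found 1065 probe sets (4.41%) whose R line minus B line difference in mature leaf was unlike that in flag leaf, 653 more positive (2.71%) and 412 more negative (1.71%). Against young leaf there were 8953 (37.1%), of which 68.3% were more positive in mature leaf, or 52.9% after quantile normalization, and against mature root 11830 (49%). More positive and more negative were 25.4% and 11.7% of tested probe sets against young leaf and 27.5% and 21.5% against mature root. Of the 3662 mature leaf calls, the difference from flag leaf passed for 645, from young leaf for 2004 and from mature root for 2302.

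**Figure D4:**
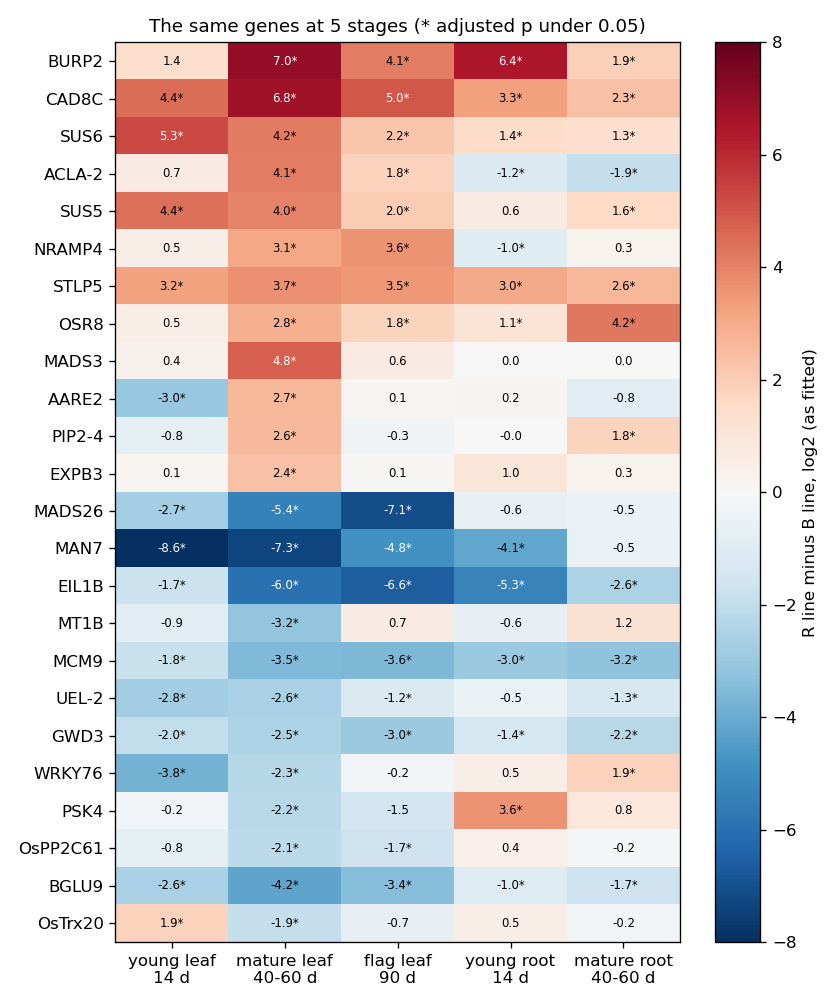
R line minus B line differences in log2, as fitted, of the 24 named genes furthest apart in mature leaf (rows) at 5 stages (columns, leaves then roots), from blue (lower in the R line) to red (higher), with a star where the adjusted p was under 0.05. CAD8C, SUS6, STLP5, EIL1B, MCM9, GWD3 and BGLU9 carry a star of 1 sign in every column. MADS3, EXPB3 and MT1B carry one in mature leaf alone.

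Among the named genes, 21 passed this test against flag leaf, and the 6 furthest apart in each direction, with means under 5 set to 5, that were also called in mature leaf are described first. MADS3 was near background at the other stages. Its mean was 3.59 in R line and 2.95 in B line flag leaf, 3.33 and 2.96 in young leaf and 2.79 and 2.77 in mature root, so all these means were near background. Differences between stages are given as fitted, also where means lay under 5. The mature leaf difference of MADS3 exceeded that in flag leaf by 4.17 ± 0.42 (limma adjusted p = 2.27e-08), that in young leaf by 4.43 ± 0.42 and that in mature root by 4.78 ± 0.42. With means under 5 set to 5, its difference from flag leaf was 2.74. Its call against flag leaf held under all 16 alternatives. PIP2-2, lower in R line mature leaf, averaged 3.69 in R line and 4.05 in B line flag leaf, and its difference from flag leaf was -2.14 ± 0.28 (adjusted p = 4.39e-06), held under all 15 alternatives that tested it. PIP2-4 averaged 3.71 in R line and 3.97 in B line flag leaf, and its mature leaf difference was larger by 2.84 ± 0.63. For MT1B the flag leaf means were 5.26 in the R line and 4.58 in the B line, so that the difference between the leaves was -3.85 ± 0.81, and for MAN7 3.75 and 8.58, with a difference of -2.51 ± 0.57. With means under 5 set to 5, the differences from flag leaf were -1.68 for PIP2-2, 2.58 for PIP2-4, -3.11 for MT1B and -1.55 for MAN7. The calls of PIP2-4, MT1B and MAN7 were lost only in a fit of the compared arrays alone (adjusted p = 0.0536, 0.128 and 0.0538).

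The calls of the other 7 of these 12 against flag leaf lay nearer the threshold (limma adjusted p from 0.0121 for ENR to 0.0485 for SUS5). All 7 were lost in a fit of only the arrays compared, and those of ACLA-2, SUS5, ENR and GT7 also after quantile normalization. ACLA-2 differed more in mature leaf than in flag leaf by 2.24 ± 0.64, with both flag leaf means under 5, and in mature root it turned round, with 8.60 in the R line against 10.48 in the B line (-1.88 as fitted). SUS5 differed more by 1.95 ± 0.58, and in young leaf it averaged 11.61 in the R line and 7.21 in the B line, where the difference of 4.39 was close to that in mature leaf (mature minus young -0.41 ± 0.58, adjusted p = 0.654). TUB1 was higher in R line mature leaf but averaged 5.36 in R line and 6.05 in B line flag leaf (difference 2.30 ± 0.61). ENR, an enoyl-ACP reductase gene of fatty acid synthesis, was lower in the R line by at least 0.80 in mature leaf and averaged 4.83 in R line and 8.36 in B line flag leaf (difference 2.20 ± 0.54). Its mature leaf call was lost without R line replicate 3 (-1.03, adjusted p = 0.112) or B line replicate 1 (-1.06, adjusted p = 0.104). GT7 was lower in R line mature leaf by at least 1.48, MADS55, of the SVP group of MADS-box genes, differed by -1.11 ± 0.27 and SK2 by -1.15 ± 0.36. None of these was called in flag leaf, where MADS55 differed by 0.26. Flag leaf means of GT7 (3.96 in the R line and 4.40 in the B line) and SK2 (4.53 and 3.91) were all under 5, so their differences there have no order. The mature leaf minus flag leaf values were -1.84 ± 0.54 for GT7, -1.36 ± 0.37 for MADS55 and -1.77 ± 0.51 for SK2. With means under 5 set to 5, these values were 4.07 for ACLA-2, 3.84 for SUS5, 2.56 for ENR, -1.48 for GT7 and -1.15 for SK2. With each value under 5 set to 5, SK2 lost its call against flag leaf (-1.27, limma adjusted p = 0.105). The mature leaf call of SK2 was lost under 7 of 16 alternatives, among them leaving out R line replicate 1 or 2 or B line replicate 2 or 3 (-1.12 to -0.83). Each of ACLA-2, SUS5, TUB1, ENR, GT7, MADS55 and SK2 lost its call against flag leaf when at least 1 of the 6 mature leaf arrays was left out (differences of 1.39 to 2.25 for ACLA-2, SUS5, TUB1 and ENR and of -1.94 to -1.11 for GT7, MADS55 and SK2 where lost).

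The other 9 named genes past the test against flag leaf were CAD8C (1.84 ± 0.43), MADS26 (1.70 ± 0.36), NIP2-1 (1.66 ± 0.37), LTI6A (1.41 ± 0.33), CKX3 (1.41 ± 0.35), CIN7 (1.23 ± 0.31), EXPA10 (-1.11 ± 0.30), IRT1 (-1.80 ± 0.30) and MADS15 (-4.42 ± 1.09). MADS15 was near background in mature leaf of both lines, and its flag leaf difference was 4.31 as fitted. With means under 5 set to 5, the difference from flag leaf was -3.03 for MADS15 and 1.58 for CAD8C. With values under 5 set to 5, MADS26 (0.48, adjusted p = 0.375) and IRT1 (-0.44, adjusted p = 0.497) did not pass. Leaving out 1 array ended the call of CIN7 (without B line replicate 2), CKX3 (R line replicate 3 or B line replicate 2) and EXPA10 (R line replicate 1 or 2).

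**Figure D5:**
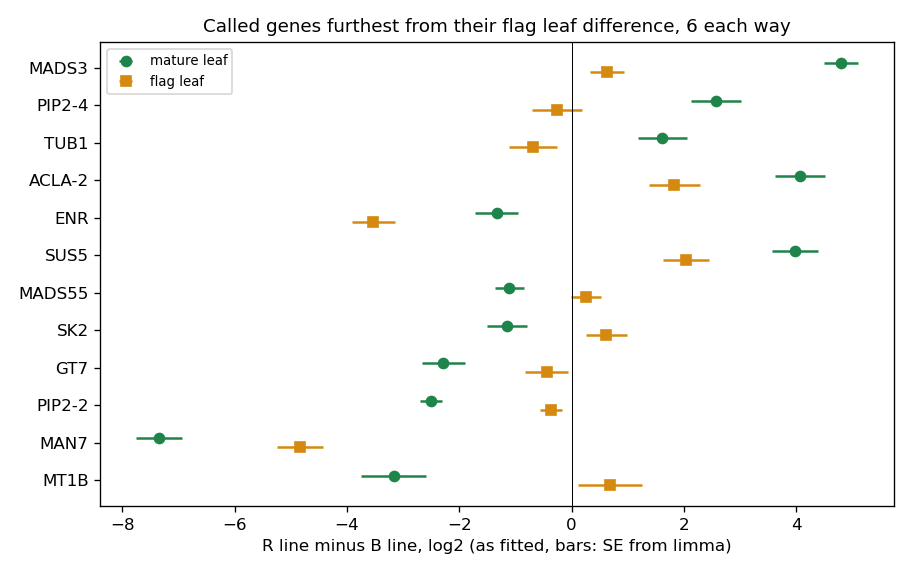
R line minus B line differences in log2, as fitted with SE bars from limma, in mature leaf (green circles) and flag leaf (orange squares) for the 6 named genes in each direction that were called in mature leaf and lay furthest from their flag leaf difference, ranked with means under 5 set to 5. MADS3 and PIP2-4 lie far to the right in mature leaf and near 0 in flag leaf, and MT1B and PIP2-2 far to the left.

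At the other end stood genes that separated the lines in every tissue sampled. SAP16, of the stress-associated zinc finger family, measured 9.55, 9.66 and 9.61 in R line mature leaf against 8.70, 8.36 and 8.20 in the B line, a difference of 1.19 ± 0.14, and a second probe set of SAP16 differed by 1.42. CARA, for the small subunit of carbamoyl phosphate synthetase, was lower by at least 0.70, though a cross-hybridizing probe set of CARA differed by -0.38 and was not called. GWD3 differed by -2.99 in flag leaf, -1.39 in young root and -2.21 in mature root. In contrast, AARE2 turned round in young leaf, where it averaged 5.13 in the R line and 8.18 in the B line, and WRKY76 in mature root, at 8.35 in the R line and 6.48 in the B line.

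Probe sets of the same gene differed in what they read for CAD8C, NRAMP4, PIP2-2, PHR2, PHT1-1, ARD1, CARA, GSTZ3, FNR and ARF23. How far sequence differences between the lines under the probes enter these values was not tested. The same holds for the probe sets without a named gene that lay furthest apart: LOC4340976 measured 12.39, 12.26 and 12.17 in the R line against 2.38, 2.89 and 2.84 in the B line, and LOC4338062 was higher by 6.38 ± 0.37. LOC4328727 measured 2.35 on all 3 R line arrays against 13.91, 13.20 and 13.61 in the B line, and LOC4341377 was lower in the R line by at least 8.54.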

How the data were processed

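The deposited values are intensities on a linear scale from Affymetrix Rice Genome Arrays, made by the authors with GCRMA per the submitters' processing notes, with no version given. The probe sets number 57381, of which 123 are controls. Here log2 was taken, with a floor of 1 that no value reached (lowest 2.41), and nothing more was normalized. Tests covered the 24130 probe sets whose mean reached 5 on that scale in any of the 15 groups.

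A single limma model (limma 3.58.1, R 4.3.3) of 15 group means used the 45 arrays together (30 residual degrees of freedom), with p-values adjusted by Benjamini-Hochberg over all tested probe sets and a threshold of 0.05. Differences between stages were contrasts of the same fit. The fit was tested on simulated data. No 2 arrays were identical. Plots came from Python 3.11.15 and matplotlib 3.10.9.

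Genes were named through the array annotation (22436 probe sets with 1 gene, 95 with several, 34850 with none) and the synonyms of a RefSeq table for japonica assembly ASM3414082v1, since most symbols are locus numbers: 2453 of 17905 genes carry a name. Candidates were named probe sets not marked as cross-hybridizing, with the highest mean per gene. The text names the 12 furthest apart in each direction without overlap (means under 5 at 5), up to 4 called members of each list, 6 in each direction with the largest difference from flag leaf among mature leaf calls, up to 6 in each direction called at all 5 stages, and markers. Other list members, counts of 5 or fewer in a list and other probe sets were named after their values were seen. Members and lists were chosen with earlier results of these data known. No sequences were read.

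The 16 alternatives were quantile normalization, no level filter, a filter at 7, only the arrays compared, a replicate block, array weights, the spike-ins or the 3' index as a covariate, values under 5 set to 5, no cross-hybridizing probe sets, and each of the 6 arrays left out. A minimum difference of 1 and an adjusted p of 0.01 were tried on counts.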

Additional observations from a re-analysis of the deposited data

Results flagged for a closer look

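For 21 named genes the R line minus B line difference in mature leaf was unlike that in flag leaf by the test of the difference itself. The mature leaf minus flag leaf values were 4.17 for MADS3, 2.84 for PIP2-4, 2.30 for TUB1, 2.24 for ACLA-2, 2.20 for ENR, 1.95 for SUS5, 1.84 for CAD8C, 1.70 for MADS26, 1.66 for NIP2-1, 1.41 for LTI6A, 1.41 for CKX3 and 1.23 for CIN7. They were -4.42 for MADS15, -3.85 for MT1B, -2.51 for MAN7, -2.14 for PIP2-2, -1.84 for GT7, -1.80 for IRT1, -1.77 for SK2, -1.36 for MADS55 and -1.11 for EXPA10. Groups of 3 arrays were too small for the check on single outlying samples.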

How the results depend on the processing

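The count of 3662 calls between the lines lay between 2765 and 3160 without any 1 array and between 2798 and 5401 under the 10 other alternatives. A minimum difference of 1 left 2134. Of the stage differences, 1065 from flag leaf became 2018 with array weights and 675 with only the arrays compared (738 to 959 without 1 array), 8953 from young leaf became 3705 with the spike-in covariate (8099 to 8572 without 1 array), and 11830 from mature root became 6390 with the 3' index covariate (10836 to 11309 without 1 array). Of 77 named genes called in mature leaf, 35 kept their call under every alternative, 42 lost it under at least 1 and 0 reversed. The spike-in covariate ended 26 of these calls and only the arrays compared 24. Replicate numbers do not pair the arrays: residuals of same-numbered R line and B line mature leaf arrays correlated at -0.03, -0.19 and -0.28. With the replicate number as a block, 3636 probe sets were called (1036 for the difference from flag leaf, 8926 from young leaf and 11831 from mature root). Signal near background limits 343 calls, whose means both lay under 5.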
